A study of Saccharomyces cerevisiae with 9 samples.

Results

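The genes described here encode proteins of the small subunit of the yeast mitochondrial ribosome. They were chosen as a list of 31 standard gene symbols, matched through systematic names to the transcripts of the deposited table, a rule that uses no measured value. The list was, however, chosen with earlier results of these data known. All 31 were found among the 6952 entries of that table, and all 31 were tested in each comparison. The data are ribosome profiles (Ribo-Seq), in which the mRNA fragments protected by ribosomes are sequenced, from 9 libraries of Saccharomyces cerevisiae strain W303 grown in rich medium (YEPD) at 30 °C. The pab1Δpbp1Δ strain lacks PAB1, the gene of the cytoplasmic poly(A)-binding protein, which was replaced by kanMX, and also PBP1, the gene of a protein that binds Pab1, which was replaced by URA3. The pbp1Δ strain carries the same URA3 replacement of PBP1 and has PAB1, and the WT strain has both genes. Each strain gave 3 libraries. Per the study's methods, the pab1Δpbp1Δ libraries are isolates made from a single pbp1Δ isolate, the pbp1Δ libraries are separate isolates, and the WT libraries are technical replicates of a single strain, so that tests against WT use a spread that may be technical. The methods also describe pab1Δpbp1Δ cells as slow growing, and slow growth cannot be told apart from the loss of Pab1 in these comparisons.

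The mitochondrial ribosome translates the few mRNAs of the mitochondrial genome, most of which encode core subunits of the respiratory chain and of ATP synthase. All but one of its proteins in yeast are encoded in the nucleus, translated in the cytosol and imported, so footprints on their mRNAs report cytosolic translation. The small subunit binds the mRNA and decodes it. Some of its proteins descend from proteins of the bacterial small subunit, and others were added in the mitochondrial lineage or have no clear bacterial counterpart. Var1, the small subunit protein encoded in the mitochondrial genome, is not among the 31. The purpose of setting pab1Δpbp1Δ against pbp1Δ is to follow the loss of Pab1 between strains that both lack Pbp1, and pbp1Δ against WT follows the loss of Pbp1 alone.

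Total expected counts (the read counts estimated per transcript) ranged from 3149040 to 6903587 per library, with the lowest in pab1Δpbp1Δ replicate 3. Normalized counts of PAB1 were 0, 2.94 and 0 in pab1Δpbp1Δ, and PBP1 had 0, 3.3 and 0 in the pbp1Δ libraries and 0 in all pab1Δpbp1Δ libraries, so the counts of the deleted genes went with the labels. Over all entries, pbp1Δ replicate 1 stood apart from the other pbp1Δ libraries, with a chi-square per degree of freedom of 35.7 and 32.0 against them and 7.34 between them, and counts of calls without it are given where they differ. All pairs of pab1Δpbp1Δ libraries also differed widely, at 43.6 for replicates 1 and 2, 26.4 for 1 and 3 and 27.2 for 2 and 3. A normalized count is an expected count divided by a factor for the depth of its library, set over all 9 libraries. A footprint count cannot tell a change in mRNA abundance from one in ribosome density, nor, in a bulk culture, a change in every cell from one in some cells.

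Together the 31 genes took a larger share of footprints in pab1Δpbp1Δ than in either other strain. They held 0.213%, 0.175% and 0.174% of the expected counts in the pab1Δpbp1Δ libraries, 0.117%, 0.103% and 0.113% in the pbp1Δ libraries, and 0.152%, 0.150% and 0.132% in the WT libraries. The means were 0.187 ± 0.0227% in pab1Δpbp1Δ, 0.111 ± 0.00736% in pbp1Δ and 0.145 ± 0.0107% in WT (SD, n = 3 each). No library of one strain overlapped those of another, with pab1Δpbp1Δ highest, WT between and pbp1Δ lowest. The widest 95% Wilson interval was that of pab1Δpbp1Δ replicate 3, from 0.169% to 0.178%, and it covers counting error only.

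In pab1Δpbp1Δ against pbp1Δ, the 6 largest increases were all in genes of proteins with a bacterial counterpart, MRPS16, RSM19, MRPS8, RSM18, MRP2 and MRPS12. Such a counterpart is shared by 18 of the 31 genes, and all 6 have coding lengths under 500 bases. DESeq2, fitted over all entries, called 16 of the 31 genes at an adjusted p-value below 0.01, and all 16 were higher in pab1Δpbp1Δ. Below, a gene is said to rise or fall only where it passed this threshold. Over all 5769 entries tested, 11.1% were called higher and 10.2% lower. The median log2 fold change was 0.75 over the 31 genes and 0.03 over all entries tested, and 26 of the 31 lay above 0, where 51.7% of all entries did. The libraries did not overlap for 22 genes, 21 of them higher and 1 lower in pab1Δpbp1Δ, against 23.9% higher and 22.0% lower over all entries. Among entries with a mean count in the range of these genes, 11.6% were called higher. edgeR's quasi-likelihood test called 13 of the 31 and limma on log2(FPKM + 1) 14, all higher, while they called 9.3% and 10.6% of all entries higher and 7.08% and 4.11% lower. At an adjusted p-value below 0.05 DESeq2 called 19, all higher, with 15.6% of all entries higher and 14.8% lower. Leaving out pbp1Δ replicate 2 gave 10 calls, with 7.26% of all entries then called higher, and leaving out pab1Δpbp1Δ replicate 1 gave 11, with 9.65%. Without pbp1Δ replicate 1 there were 18, with 10.9% of all entries called higher.

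**Figure D1:**
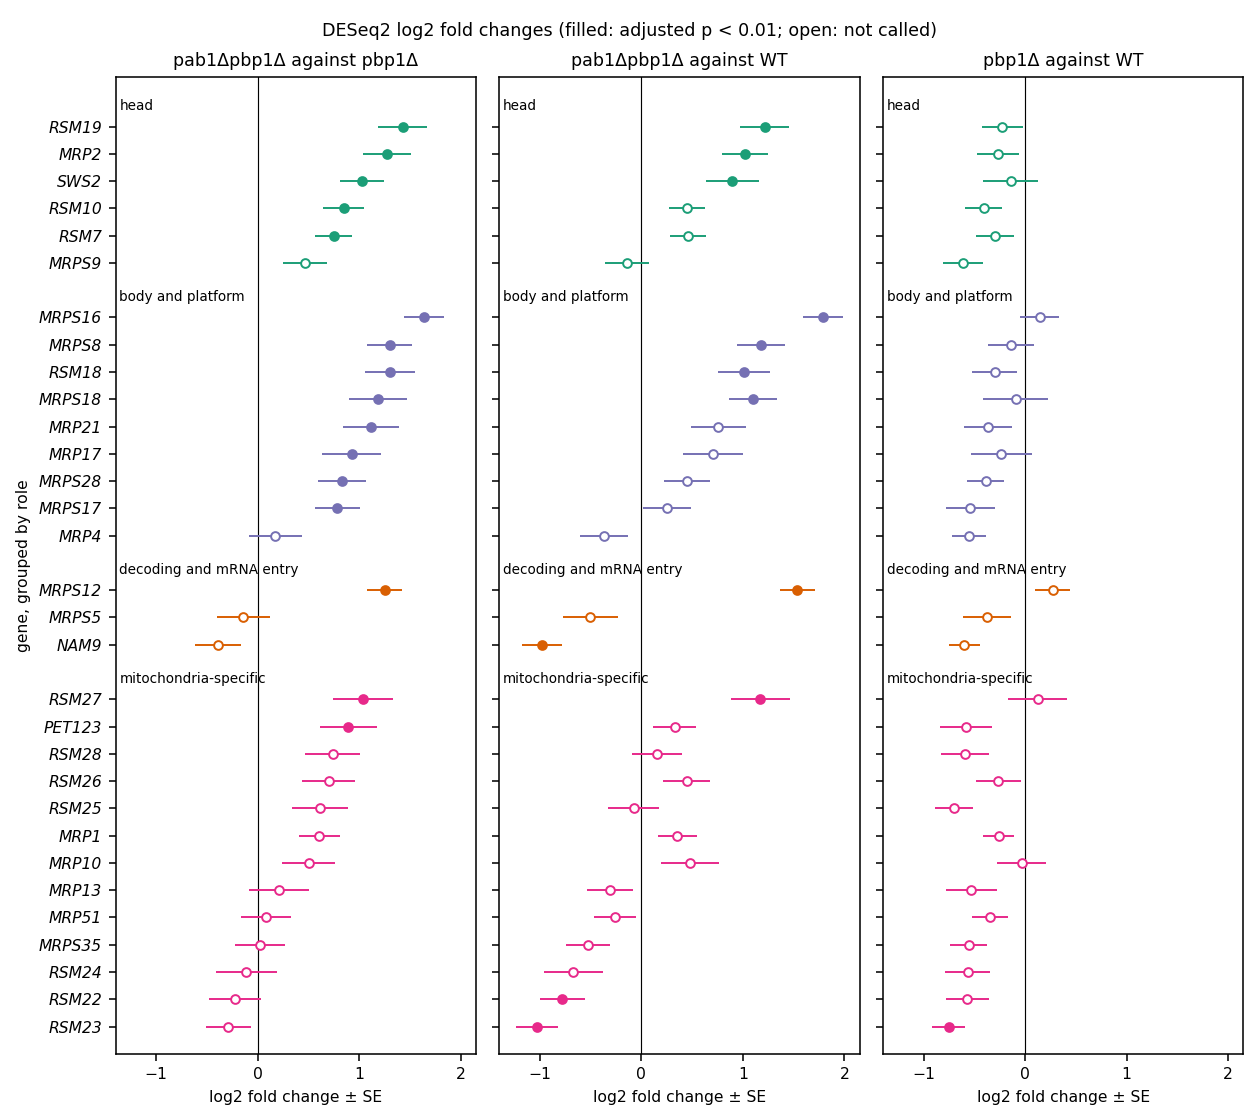
DESeq2 log2 fold changes of the 31 genes with their standard errors, in 3 panels, one per comparison of 2 strains. Genes are grouped by role and ordered by their value in pab1Δpbp1Δ against pbp1Δ, and filled points passed an adjusted p-value of 0.01. The left panel holds 16 filled points, all above 0, the middle panel 9 above and 3 below 0, and the right panel 1, below 0.

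The head of the small subunit, which moves as tRNAs and mRNA pass through the ribosome, held 6 of the genes, and 5 of them rose, with a median log2 fold change of 0.94. RSM19, the counterpart of bacterial uS19, had 265, 434 and 349 normalized counts in pab1Δpbp1Δ, 121, 133 and 131 in pbp1Δ and 159, 161 and 129 in WT. All pab1Δpbp1Δ libraries lay above all others, and the pbp1Δ and WT libraries overlapped. Its log2 fold change in pab1Δpbp1Δ against pbp1Δ was 1.43 ± 0.24 (SE, DESeq2 adjusted p = 7.67e-08). MRP2, the counterpart of uS14, had 368, 277 and 262 normalized counts in pab1Δpbp1Δ, 140, 116 and 117 in pbp1Δ and 158, 161 and 128 in WT. Again only the pab1Δpbp1Δ libraries stood apart, with a log2 fold change of 1.27 ± 0.23 against pbp1Δ (SE, DESeq2 adjusted p = 7.81e-07). SWS2 (uS13), RSM10 (uS10) and RSM7 (uS7) also rose, with log2 fold changes of 1.03, 0.85 and 0.75. MRPS9 (uS9) was the head gene that did not pass, at 0.46 on the log2 scale (DESeq2 adjusted p = 0.0922), although its libraries did not overlap.

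The body and platform, which carry much of the contact with the large subunit, held 9 genes, and 8 of them rose, with a median log2 fold change of 1.11. MRPS16, the counterpart of bS16, gave the largest value of all 31. Its gene lies on chromosome XVI at 528985 to 529350 of the R64 assembly. It had 462, 437 and 367 normalized counts in pab1Δpbp1Δ, 138, 134 and 133 in pbp1Δ and 128, 125 and 113 in WT. The lowest pab1Δpbp1Δ library was far above the highest pbp1Δ library, and the pbp1Δ libraries lay just above the WT libraries. The log2 fold change in pab1Δpbp1Δ against pbp1Δ was 1.64 ± 0.20 (SE, DESeq2 adjusted p = 6.04e-15), a 3.11-fold difference.

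MRPS8 (uS8), which binds the central domain of the ribosomal RNA in bacteria, had 351, 273 and 273 normalized counts in pab1Δpbp1Δ, 129, 109 and 123 in pbp1Δ and 109, 160 and 126 in WT. The pbp1Δ and WT libraries were mixed in rank and every pab1Δpbp1Δ library was above them, a 2.47-fold difference from pbp1Δ with an SE of 0.22 on the log2 scale (DESeq2 adjusted p = 8.74e-08). RSM18 (bS18) had 434, 337 and 256 normalized counts in pab1Δpbp1Δ, 131, 138 and 146 in pbp1Δ and 208, 167 and 134 in WT. It spread widely inside pab1Δpbp1Δ, yet did not overlap with pbp1Δ, and the difference was 2.46-fold with an SE of 0.24 on the log2 scale (DESeq2 adjusted p = 1.74e-06). The other calls of the body were MRPS18 (uS11, 1.18), MRP21 (bS21, 1.11), MRP17 (bS6, 0.93), MRPS28 (uS15, 0.83) and MRPS17 (uS17, 0.78), given as log2 fold changes.

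MRP4, the counterpart of uS2, which sits between head and body, was the body gene that did not pass. It had 335, 198 and 215 normalized counts in pab1Δpbp1Δ, 194, 219 and 244 in pbp1Δ and 311, 352 and 299 in WT. Only pab1Δpbp1Δ replicate 1 was above the pbp1Δ libraries. The log2 fold change against pbp1Δ was 0.18 (DESeq2 adjusted p = 0.668), and it was -0.10 without that library.

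The 3 proteins that line the decoding centre and the mRNA entry differed widely in their values. MRPS12 is the counterpart of uS12, the bacterial protein in which streptomycin resistance mutations arise. It had 484, 468 and 474 normalized counts in pab1Δpbp1Δ, 197, 189 and 206 in pbp1Δ and 172, 161 and 157 in WT. The strains were fully separated in that order, with little spread inside any of them. The log2 fold change was 1.25 ± 0.17 against pbp1Δ (SE, DESeq2 adjusted p = 1.16e-11) and 1.54 ± 0.17 against WT (SE, DESeq2 adjusted p = 5.62e-17).

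NAM9, the counterpart of uS4, was found in yeast as a nuclear suppressor of stop mutations in mitochondrial genes, and it gave the lowest value of the 31. It had 376, 368 and 247 normalized counts in pab1Δpbp1Δ, 360, 464 and 473 in pbp1Δ and 606, 706 and 646 in WT. The pab1Δpbp1Δ and pbp1Δ libraries overlapped, and all 6 lay below the WT libraries. Against pbp1Δ the log2 fold change was -0.39 ± 0.23 (SE, DESeq2 adjusted p = 0.183), and against WT it was -0.98 ± 0.20 (SE, DESeq2 adjusted p = 5.94e-06). MRPS5 (uS5) had a log2 fold change of -0.14 against pbp1Δ and was not called in any comparison.

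A group of 13 proteins is specific to mitochondria or has no clear bacterial counterpart. Of these, 2 were called higher in pab1Δpbp1Δ against pbp1Δ, and the median log2 fold change was 0.50. By sign, 10 of the 13 lay above 0, and 6 were higher without overlap of the libraries. Among the 18 with a bacterial counterpart, 14 were called higher, with a median of 0.98. Of these 18, 16 lay above 0 and 15 were higher without overlap. Over all entries, 11.1% were called higher, 51.7% lay above 0 and 23.9% were higher without overlap. The 2 calls among the 13 are thus near the share of all entries called higher. RSM27 (mS33) had 137, 107 and 163 normalized counts in pab1Δpbp1Δ, 68.0, 52.0 and 75.2 in pbp1Δ and 56.9, 56.1 and 65.7 in WT. Its pab1Δpbp1Δ libraries stood above all others, and the log2 fold change was 1.04 ± 0.30 against pbp1Δ (SE, DESeq2 adjusted p = 0.00277). PET123 (mS26), whose mutations suppress the loss of Pet122, the activator of COX3 mRNA translation, had a log2 fold change of 0.89 (DESeq2 adjusted p = 0.008). The calls of RSM27 and PET123 were each lost on leaving out single libraries, pbp1Δ replicate 2 among them, as were those of MRP17, MRPS17, MRPS28 and RSM7.

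RSM23 (mS29), the yeast relative of the human protein DAP3, and RSM22, which resembles RNA methyltransferases, were the lowest of these 13. RSM23 had 158, 129 and 131 normalized counts in pab1Δpbp1Δ, 174, 168 and 165 in pbp1Δ and 279, 311 and 262 in WT. It was the gene that was lower in every pab1Δpbp1Δ library than in every pbp1Δ library, by a margin that did not pass the test (log2 fold change -0.29, DESeq2 adjusted p = 0.353). RSM22 had 147, 149 and 116 normalized counts in pab1Δpbp1Δ, 191, 126 and 164 in pbp1Δ and 263, 216 and 232 in WT. Its libraries overlapped between pab1Δpbp1Δ and pbp1Δ, with a log2 fold change of -0.22 (DESeq2 adjusted p = 0.567), and lay below WT in both.

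MRP51, which acts in the translation of the mitochondrial COX1 and COX2 mRNAs through their leaders, had 561, 342 and 406 normalized counts in pab1Δpbp1Δ, 511, 360 and 355 in pbp1Δ and 537, 509 and 512 in WT. MRPS35 (mS45) had 466, 293 and 448 in pab1Δpbp1Δ, 487, 336 and 351 in pbp1Δ and 622, 503 and 598 in WT. Both genes overlapped between pab1Δpbp1Δ and pbp1Δ, and their log2 fold changes of 0.08 and 0.02 turned to below 0 when single libraries were left out.

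MRP13 (mS44) had 375, 232 and 268 normalized counts in pab1Δpbp1Δ, 351, 191 and 207 in pbp1Δ and 418, 336 and 325 in WT. RSM24 (mS35) had 95.3, 72.0 and 61.5 in pab1Δpbp1Δ, 85.4, 76.0 and 85.6 in pbp1Δ and 130, 128 and 107 in WT. In both, replicate 1 of pab1Δpbp1Δ was its highest library, above the pbp1Δ libraries, and the other pab1Δpbp1Δ libraries were below or among them. Their log2 fold changes of 0.21 and -0.11 against pbp1Δ were not called, and each changed sign on leaving out a library. The remaining mitochondria-specific genes were MRP1 (mS43), RSM25 (mS23), RSM26 (mS42), RSM28 (mS46) and MRP10 (mS37). They had log2 fold changes between 0.50 and 0.74, and none was called. In all of them but MRP10, every pab1Δpbp1Δ library lay above every pbp1Δ library. The DESeq2 adjusted p-values of MRP1, RSM28, RSM26 and RSM25 were 0.0124, 0.0266, 0.0281 and 0.0727. MRP1, RSM26 and RSM28 were called under 3, 4 and 2 of 16 alternatives.

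**Figure D2:**
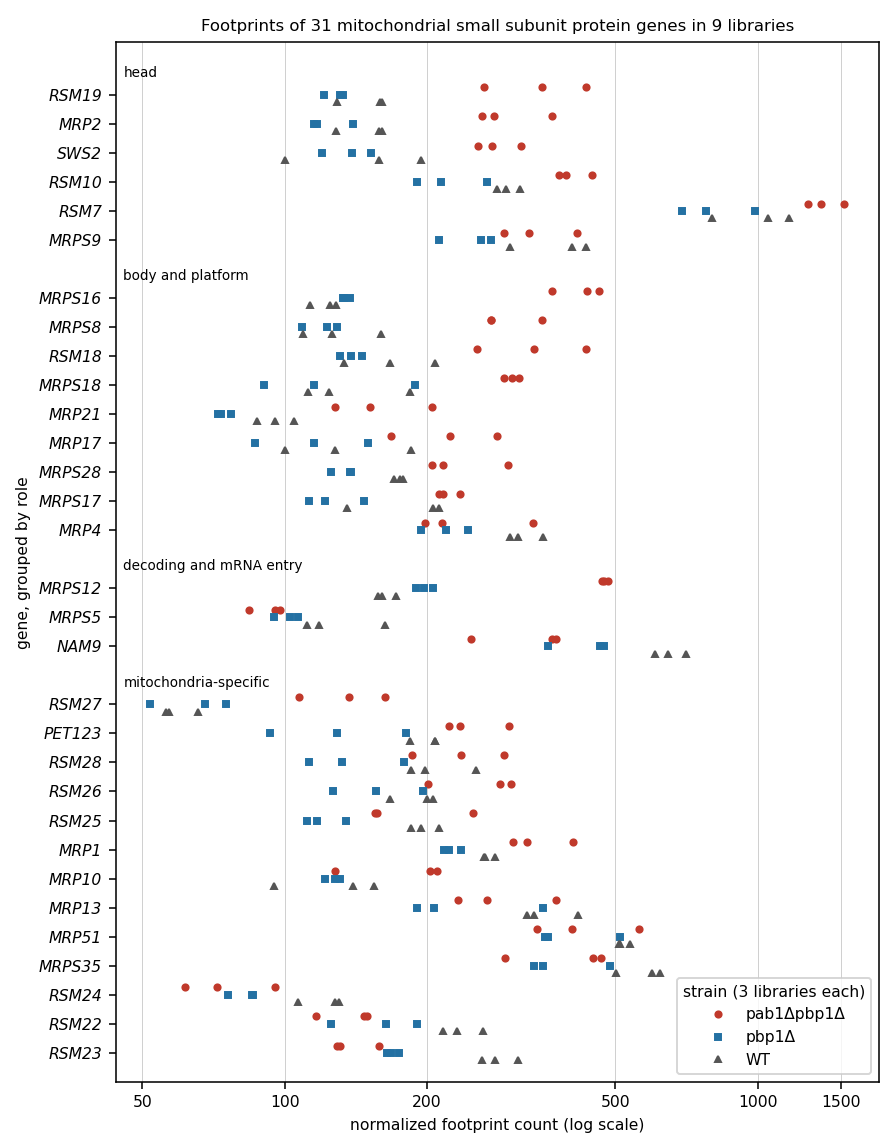
Normalized footprint counts of the 31 genes in each of the 9 libraries on a log axis, with pab1Δpbp1Δ as red circles, pbp1Δ as blue squares and WT as grey triangles. MRPS12 and MRPS16 have 3 pab1Δpbp1Δ libraries far to the right of all others, while NAM9, RSM22 and RSM23 have their 3 WT libraries to the right of the other 6.

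In pbp1Δ against WT the values leaned the other way and few passed the test. A single gene, 1 of the 31, passed in DESeq2 and was lower in pbp1Δ, where 0.87% of the 5635 entries tested were called lower and 0.337% higher. The median log2 fold change was -0.37 over the 31 genes and 0.00 over all entries tested, and 28 of the 31 were below 0, where 49.7% of all entries were. An unadjusted p below 0.05 was reached by 15 genes, each of them lower in pbp1Δ, against 6.58% of all entries lower and 6.09% higher. No gene was called by edgeR or by limma on log2(FPKM + 1), where 0.0192% and 0.0188% of all entries were called lower and 0.0% higher. DESeq2 at an adjusted p-value below 0.05 called 4 genes, each lower, against 1.71% lower and 0.876% higher of all entries. The libraries did not overlap for 15 genes that were lower and 2 that were higher in pbp1Δ, against 11.4% and 11.9% over all entries. The 2 higher ones were MRPS12 and MRPS16, with log2 fold changes of 0.27 and 0.14 and DESeq2 adjusted p-values of 0.543 and 0.868.

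The called gene was RSM23, on chromosome VII at 267723 to 269075 of R64, with 169 ± 5.01 normalized counts in pbp1Δ and 284 ± 25.1 in WT (SD, n = 3 each). Its log2 fold change was -0.75 ± 0.16 (SE, DESeq2 adjusted p = 0.000807). The call was lost with edgeR, with limma on FPKM values and on leaving out any WT library or pbp1Δ replicate 2 or 3. Without pbp1Δ replicate 1, 6 of the 29 genes then tested were called, all lower, while 1.61% of all entries were called lower and 0.738% higher. By adjusted p, NAM9 and RSM25 came next, with log2 fold changes of -0.60 and -0.70 and DESeq2 adjusted p-values of 0.0102 and 0.0152. For MRP13 and MRP51, pbp1Δ replicate 1 lay inside the WT range and the other pbp1Δ libraries below it.

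In pab1Δpbp1Δ against WT the genes split. DESeq2 called 9 of the 31 higher and 3 lower, against 15.7% higher and 15.3% lower of the 5877 entries tested, and the median log2 fold change was 0.45, with 0.05 over all entries. Without pab1Δpbp1Δ replicate 1 the median over the 31 genes was 0.26. edgeR called 10 higher and 3 lower (16.8% and 15.1% of all entries), limma on log2(FPKM + 1) 11 and 3 (18.4% and 10.9%), and DESeq2 at an adjusted p-value below 0.05 called 13 and 5 (19.9% and 19.2%). The 9 were RSM19, MRP2 and SWS2 of the head, MRPS16, MRPS8, MRPS18 and RSM18 of the body, MRPS12 of the decoding centre and RSM27, and their log2 fold changes ran from 0.90 for SWS2 to 1.79 for MRPS16. The 3 lower ones were NAM9, RSM22 and RSM23, at -0.98, -0.78 and -1.03 with DESeq2 adjusted p-values of 5.94e-06, 0.00166 and 6.71e-06. This comparison and the others share libraries, so the 3 sets of values are not independent of each other. By the means of the strains, 17 genes were highest in pab1Δpbp1Δ and lowest in pbp1Δ, and 3 (MRPS12, MRPS16 and RSM27) were highest in pab1Δpbp1Δ and lowest in WT. Another 11 were highest in WT, of which 6 were lowest in pbp1Δ and 5 (NAM9, RSM22, RSM23, RSM24 and MRPS5) were lowest in pab1Δpbp1Δ.

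Levels of different genes can be set side by side in FPKM, which divides footprints by transcript length and library depth. In WT, RSM7 stood at the top with 154, 200 and 211 FPKM, and its lowest library was above every library of the next gene, MRPS35, at 98.3, 78.5 and 88.8 FPKM. MRP51 followed with 85.3, 79.8 and 76.2 FPKM, which overlapped MRPS35 and lay apart from the fourth gene, RSM10. From there downwards every neighbouring pair in the WT order overlapped. The lowest were RSM27 with 21.5, 21.0 and 23.4, RSM22 with 23.3, 18.8 and 19.2 and RSM24 with 21.2, 20.6 and 16.3 FPKM. The median over the 31 genes was 60.3 FPKM in pab1Δpbp1Δ, 36.6 in pbp1Δ and 43.7 in WT.

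The order of levels in pab1Δpbp1Δ differed from that in WT, while RSM7 stayed first in each strain, with 308, 259 and 273 FPKM in pab1Δpbp1Δ and 130, 146 and 187 in pbp1Δ. MRPS16 had a mean of 145 ± 17.2 FPKM in pab1Δpbp1Δ (rank 4), 43.0 ± 0.72 in pbp1Δ (rank 10) and 39.0 ± 3.77 in WT (rank 18; SD, n = 3 each). MRPS12 had 151 ± 2.18 FPKM in pab1Δpbp1Δ (rank 3), 58.5 ± 2.89 in pbp1Δ (rank 5) and 48.3 ± 3.62 in WT (rank 12; SD, n = 3 each). NAM9 was ordered the opposite way, with 37.0 ± 8.11 FPKM in pab1Δpbp1Δ (rank 26), 45.2 ± 6.56 in pbp1Δ (rank 9) and 68.0 ± 5.58 in WT (rank 6; SD, n = 3 each). Thus the footprint density of MRPS12, a decoding centre protein, was above that of NAM9 in all 3 pab1Δpbp1Δ libraries and below it in all 3 WT libraries. Across the 31 genes, the correlation of mean log2 FPKM was 0.71 between pab1Δpbp1Δ and WT, 0.86 between pab1Δpbp1Δ and pbp1Δ and 0.94 between pbp1Δ and WT. The points are genes of the same libraries and not replicates.

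The genes of this single particle also lay further apart in pab1Δpbp1Δ. The ratio of the highest to the lowest mean FPKM was 21.9 in pab1Δpbp1Δ, 11.8 in pbp1Δ and 9.73 in WT. The SD of log2 FPKM over the 31 genes was 1.03, 1.10 and 1.10 in the pab1Δpbp1Δ libraries, 0.72, 0.81 and 0.78 in the pbp1Δ libraries and 0.68, 0.71 and 0.75 in the WT libraries. Each pab1Δpbp1Δ library had a wider spread than any other library, and the pbp1Δ and WT libraries overlapped. Neither this spread nor the correlations between strains were computed over all entries or for other lists. They are therefore not shown to be particular to these genes.

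**Figure D3:**
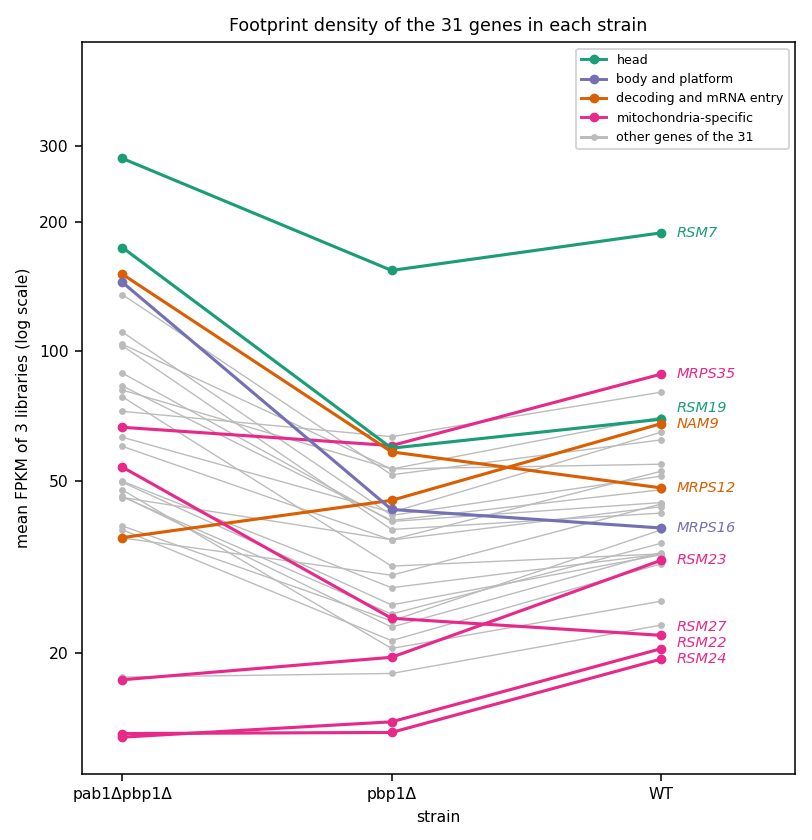
Mean FPKM of each of the 31 genes in pab1Δpbp1Δ, pbp1Δ and WT (3 libraries each) on a log axis, with 10 genes coloured by role and the others in grey. The lines fan out towards pab1Δpbp1Δ, where MRPS12 and MRPS16 are near the top and NAM9, at rank 26, is near the bottom.

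Within the 31 genes, the coding length went with the size and sign of the change. Lengths from the RefSeq annotation of R64 ran from 276 bases (RSM19) to 1887 (RSM22), with a median of 795, and the median over all protein-coding genes was 1203. The genes were placed in 3 length classes, which were chosen after the values had been seen. In pab1Δpbp1Δ against pbp1Δ, 9 of the 10 genes under 500 bases rose, with a median log2 fold change of 1.26, as did 7 of the 13 from 500 to 1000 bases, with a median of 0.75. None of the 8 longer genes was called, and their median was 0.05. By sign alone, 10 of 10, 11 of 13 and 5 of 8 lay above 0. Over all entries it was 448 of 581, 951 of 1459 and 1376 of 3424. Over all entries with a length, 30.5% of those under 500 bases, 16.3% of the middle class and 6.1% of the longest were called higher. The counts of the 31 genes stood above these shares in the shorter classes. In the longest class, 0 of 8 is near the share of all entries. Of all entries, 3.44%, 5.62% and 14.1% were called lower in the 3 classes, and none of the 31 genes was.

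In pab1Δpbp1Δ against WT the medians by length class were 1.10, 0.36 and -0.45 for the 31 genes and 0.87, 0.36 and -0.16 for all entries. All 9 genes that rose had at most 654 bases, and the 3 that fell (RSM23, NAM9 and RSM22) were the longest of the 31, at 1353 bases or more. By class, 8 of 10, 1 of 13 and 0 of 8 rose, against 36.9%, 25.6% and 8.73% of all entries. The middle class was thus below the share of all entries called higher, and 0 of 8 in the longest class is near it. In the longest class 3 of 8 fell, against 21.9% of all entries, and in the shorter classes none did, against 3.99% and 7.61%. In pbp1Δ against WT the medians were -0.14, -0.39 and -0.56 for the 31 genes, and 0.17, 0.11 and -0.05 for all entries. In each length class the median of the 31 genes was thus the lower one. The Pearson correlation of log2 length with the log2 fold change was -0.80 over the 31 genes in pab1Δpbp1Δ against pbp1Δ, where it was -0.23 over 5464 entries. Over the 31 genes it was -0.85 in pab1Δpbp1Δ against WT, where it was -0.31 over 5519 entries, and it was -0.75 in pbp1Δ against WT, where it was -0.25 over 5377 entries. These values are descriptions across genes.

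**Figure D4:**
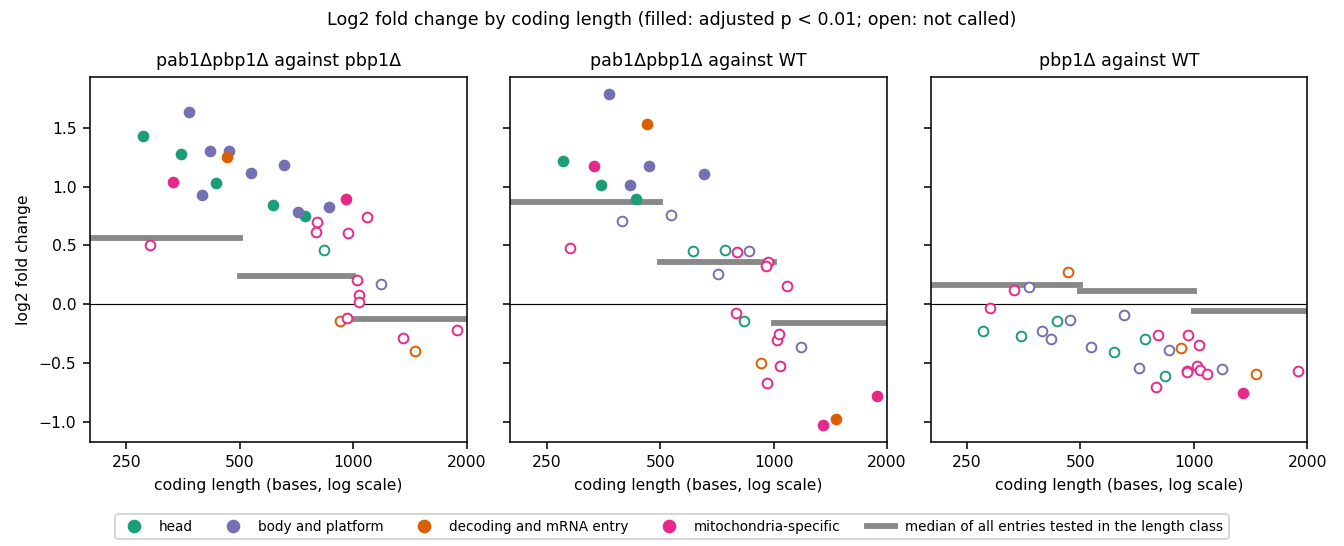
Log2 fold change of the 31 genes (points coloured by role, filled where called) against coding length on a log axis, in 3 panels for the comparisons. Grey bars give the median of all entries tested in the length classes under 500, 500 to 1000 and over 1000 bases. The points run from upper left to lower right in each panel, more steeply than the grey bars.

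The slope with length was below 0 in each of the 3 pab1Δpbp1Δ and 3 pbp1Δ libraries. Set against the mean of pbp1Δ, the slope of the log2 difference per doubling of length over the 31 genes was -0.53, -0.68 and -0.60 in pab1Δpbp1Δ replicates 1, 2 and 3, where it was -0.28, -0.11 and -0.23 over the 4508 entries that averaged 50 or more normalized counts. Set against the mean of WT, it was -0.23, -0.31 and -0.26 in pbp1Δ replicates 1, 2 and 3, where it was -0.20, -0.01 and -0.05 over all those entries. Between replicates of the same strain the size of the slope over the 31 genes was at most 0.157. Over the 4508 entries it reached 0.189, between pbp1Δ replicates 1 and 2, close to the size of the slope of pbp1Δ replicate 1 against WT. Libraries of a strain thus differed in how footprints were spread over long and short transcripts, and the part of this in the results was not tested.

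Length and role went together among these genes. The 18 genes with a bacterial counterpart had a median length of 573 bases and the 13 others a median of 966. Under 500 bases, all 8 genes with a counterpart and 1 of 2 mitochondria-specific ones rose in pab1Δpbp1Δ against pbp1Δ. From 500 to 1000 bases it was 6 of 8 and 1 of 5, and above 1000 bases 0 of 2 and 0 of 6. The correlation of log2 length with the log2 fold change was -0.88 within the 18 and -0.60 within the 13. The difference between the roles was not tested apart from length.

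The 31 genes lie on 12 of the 16 chromosomes. One pair is adjacent, MRPS12 at 694361 to 694822 and RSM19 at 695052 to 695327 of chromosome XIV, and both were among the 6 highest in pab1Δpbp1Δ against pbp1Δ. Isoform and gene tables gave the same expected counts for all 31.

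Genes of the same pathway were counted for comparison. Of 44 proteins of the mitochondrial large subunit, 17 were called higher in pab1Δpbp1Δ against pbp1Δ and none lower. Their median log2 fold change was 0.60, from -0.21 for RML2 to 1.83 for MRPL50. By sign, 43 of the 44 lay above 0 (51.7% of all entries). Without overlap of the libraries, 28 of the 44 were higher (23.9% of all entries). By the same length classes 10 of 17, 7 of 23 and 0 of 4 of the large subunit genes were called higher. The loss of Pbp1 alone (pbp1Δ against WT) gave 4 lower calls among the 44 (MRP20, RML2, MRPL3 and MRPL24, named after their values were seen), with a median of -0.38 over the 44. Of 56 proteins of the cytosolic small subunit, 20 fell and none rose in pab1Δpbp1Δ against pbp1Δ, with a median of -0.51 and extremes of -4.01 for RPS22B and 0.12 for RPS25B.

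The factors that assemble the mitochondrial small subunit, start its translation or activate single mitochondrial mRNAs were counted as a separate list. That list also holds EHD3, whose product is itself a protein of the small subunit and is not among the 31. None of the 15 tested was called in pab1Δpbp1Δ against pbp1Δ by DESeq2, with 1 at an unadjusted p below 0.05 and a median log2 fold change of 0.04. They ran from -0.24 for CCM1, a protein that stabilises the small subunit RNA, to 0.70 for CBS2, an activator of COB mRNA translation. In pbp1Δ against WT their median was -0.39, near the -0.37 of the 31 genes, with 11 of the 15 below 0 and 7 lower in all pbp1Δ libraries than in all WT libraries. RMD9, a protein that binds mitochondrial mRNAs, was the 1 call among them, at -0.73 (DESeq2 adjusted p = 1.26e-06, named after its value was seen).

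Among 5 regulators, none was called in pab1Δpbp1Δ against pbp1Δ, with 2 at an unadjusted p below 0.05 and values from 0.37 for HAP2 to 0.91 for HAP3. PUF3 encodes the RNA-binding protein that binds nuclear-encoded mRNAs of mitochondrial ribosomal proteins. It had 668, 781 and 807 normalized counts in pab1Δpbp1Δ, 502, 564 and 567 in pbp1Δ and 757, 765 and 861 in WT. The pbp1Δ libraries were below all others. The log2 fold change was 0.45 in pab1Δpbp1Δ against pbp1Δ (DESeq2 adjusted p = 0.0223) and -0.55 in pbp1Δ against WT (DESeq2 adjusted p = 0.00207), of which the second passed the threshold of 0.01. HAP4, the activating subunit of the Hap complex that drives respiratory genes, had 117, 82.3 and 80.9 normalized counts in pab1Δpbp1Δ, 75.9, 43.8 and 40.9 in pbp1Δ and 90.3, 79.4 and 70.0 in WT. Its pab1Δpbp1Δ libraries were above those of pbp1Δ, with a log2 fold change of 0.79 that was not called (DESeq2 adjusted p = 0.0805).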

How the data were processed

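Ribosome-protected fragments of 3 pab1Δpbp1Δ, 3 pbp1Δ and 3 WT cultures were processed by the authors. Lysates were digested with RNase I, 80S ribosomes were pelleted, and, per the submitters' processing notes, cutadapt 1.9, UMI-tools, Bowtie 1.0.0, RSEM 1.3.0 and build R64 were used. The authors deposited expected counts, estimated by RSEM so that a read matching several transcripts is divided among them, per isoform and per gene. The deposited FPKM values cover the same entries.

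Isoform expected counts were rounded and tested for each pair of strains with DESeq2 1.42.0 (R 4.3.3) on 6 libraries. Following the study's methods, no covariate was used, alpha was 0.01, and entries passed when their p-value, adjusted by Benjamini-Hochberg over all entries tested, was below 0.01. Alternatives were edgeR 4.0.16, limma 3.58.1 on log2(FPKM + 1) and log2(FPKM + 0.1), other size factors, filters and thresholds, the gene table, a joint fit of the 9 libraries, a block for the replicate number, and leaving out each library. The scripts were tested on simulated data. In the simulated pab1Δpbp1Δ against pbp1Δ, DESeq2 called 21.2% of entries changed by 0.7 on the log2 scale. It called 61.2% of those changed by 1 and 100% of those changed by 2.

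The members and lists were chosen with earlier results of these data known. Values of every library are given for the 6 highest and 3 lowest members in pab1Δpbp1Δ against pbp1Δ, the highest and lowest and any called in pbp1Δ against WT, the 3 highest and 3 lowest in WT FPKM, and members whose direction turned under an alternative. Symbols, lengths and positions came from RefSeq (R64), in which 6259 of 6952 entries matched, and all 31 members did. The lengths are coding spans (97.1% are multiples of 3), with any introns included. MTG3 was matched by its RefSeq symbol GEP3. Replicates differed by more than sampling noise (chi-square per degree of freedom 5.97 to 43.6), so each library counted as a sample.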

Additional observations from a re-analysis of the deposited data

How the results depend on the processing

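In pab1Δpbp1Δ against pbp1Δ, 16 of the 31 genes were called, and 13 to 19 under the alternatives that kept all libraries, each of them higher in pab1Δpbp1Δ. Leaving out a library gave 10 to 18 calls, the fewest without pbp1Δ replicate 2. Of the 16 calls, 10 held under all 16 alternatives per gene (MRP2, MRP21, MRPS8, MRPS12, MRPS16, MRPS18, RSM10, RSM18, RSM19 and SWS2), and of the 15 other genes 12 were never called. In pbp1Δ against WT, 1 gene was called, with 0 under edgeR and under limma with either pseudocount, 2 with TMM factors or without cytosolic ribosomal protein entries in the size factors, 3 in the gene table and 4 at an adjusted p below 0.05. Leaving out a library gave 0 to 6 calls there, the most without pbp1Δ replicate 1 and 0 on leaving out any other. In pab1Δpbp1Δ against WT there were 12 calls, and 9 to 12 with a library left out. The median log2 fold changes moved by less than the spread between libraries under the alternatives run, although in pab1Δpbp1Δ against WT the median of 0.45 was 0.26 without pab1Δpbp1Δ replicate 1. The cause of these shifts was not tested.

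The share of the 31 genes was 0.216% in pab1Δpbp1Δ, 0.134% in pbp1Δ and 0.174% in WT with cytosolic ribosomal proteins taken out of the total, and 0.279%, 0.149% and 0.191% of summed FPKM, in the same order of strains.

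None of the genes whose direction turned in pab1Δpbp1Δ against pbp1Δ was called. With a library left out, the log2 fold change ran from -0.10 to 0.33 for MRP4 and from -0.016 to 0.54 for MRP13, below 0 without pab1Δpbp1Δ replicate 1. It ran from -0.15 to 0.27 for MRP51 and from -0.10 to 0.22 for MRPS35, below 0 without pab1Δpbp1Δ replicate 1 or pbp1Δ replicate 2 or 3 and, for MRPS35, also without pab1Δpbp1Δ replicate 3. It ran from -0.31 to 0.0096 for RSM24, above 0 without pab1Δpbp1Δ replicate 3.

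The replicate numbers were not shown to pair the libraries, since same-numbered libraries deviated together with correlations from -0.12 to 0.30 over 5300 entries, and not every library correlated best with its own number. With the replicate number as a block, 16, 1 and 12 genes were called in pab1Δpbp1Δ against pbp1Δ, pbp1Δ against WT and pab1Δpbp1Δ against WT. The 1 gene in pbp1Δ against WT was then NAM9, among 9 genes that passed the filter on low counts, and RSM23 was not tested there. With 3 libraries a strain, a gene that was not called may still differ.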
